A study of Mus musculus with 6 samples.

Results

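The 83 genes described here are the interleukins and interleukin receptors of a mouse RNA sequencing study, taken as every gene whose symbol begins with Il and a digit, out of 22899 genes listed per library. By the protein they encode, 37 are secreted ligands. Of the others, 38 encode receptor chains, 6 encode decoy receptors or soluble inhibitors, and 2 encode an enzyme, Il4i1 and the overlapping entry Il4i1b, that carries the prefix because interleukin-4 induces it. Helper T lymphocytes, which carry CD4, had been purified by flow cytometry from spleens of C57BL/6 mice. Obese mice received a high-fat diet (60 kcal% fat), generally begun at 6 to 8 weeks of age and lasting up to 4 months. Lean mice received a normal diet, and the same starting age and duration are listed for them. Each group was represented by 3 libraries, obese 1 to 3 and lean 1 to 3, and the sources used here do not say whether each came from its own mouse, so the p-values reflect variation among libraries, which may be technical.

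Interleukins are secreted proteins by which leukocytes instruct one another. Most act through receptors built from a private chain that binds the ligand and a shared chain that signals: the common gamma chain serves IL-2, IL-4, IL-7, IL-9, IL-15 and IL-21, and gp130 serves IL-6 and IL-11, all through JAK kinases and STAT transcription factors. The IL-1 family, to which IL-18 and IL-33 belong, signals instead through MyD88, and is held in check by decoy receptors and binding proteins. Resting helper T cells are known chiefly as carriers of receptors, and release most of their own interleukins after stimulation.

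Values are FPKM, fragments per kilobase of transcript scaled to the mapped fragments of the library, so levels can be set side by side between genes. No read counts were used here, and the depth behind each value is unknown. The summed FPKM of a library was 595106 to 630744 in obese and 616104 to 656303 in lean libraries. Each difference is the obese minus the lean mean of log2(FPKM + 1), from limma fitted to all 10788 genes that reached 1 FPKM in 3 or more libraries, and a gene was called when its Benjamini-Hochberg (BH) adjusted p over all of these lay under 0.05. T cell markers (Cd3d, Cd3e, Cd3g, Cd4, Lat, Cd28, Cd5 and Cd6) summed to 2185 to 2671 FPKM in obese and 2525 to 2794 FPKM in lean libraries, so T cell transcripts were abundant in all libraries, but transcripts of other cells were present in every library. The 12 macrophage markers all rose and summed to 1061 to 1315 FPKM in obese and 422.1 to 446.8 FPKM in lean libraries. Of 10 neutrophil markers 6 fell, with sums of 150.7 to 413.8 FPKM in obese and 541.0 to 772.7 FPKM in lean libraries. The 8 B cell markers had no call and overlapped, with 499.4 to 936.9 FPKM in obese and 346.0 to 755.1 FPKM in lean libraries. The 10 erythroid markers all rose, by a median of 4.98 on the log2 scale, and summed to 4357 to 29030 FPKM in obese and 174.3 to 474.7 FPKM in lean libraries, so that they exceeded the T cell marker sum in every obese library.

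Receptor chains made up most of the interleukin transcripts in these libraries, and the ligands were mostly near 0. Of the 83 genes, 41 stayed under 1 FPKM in all 6 libraries and are counted as not expressed, among them 25 of the 37 ligands and 12 of the 38 receptor chains. Of those 41, 9 were listed at 0 throughout, including Il9, Il33 and the skin cytokines Il1f6 and Il1f8. The other 42 reached 1 FPKM in at least 1 library, and 37 of them entered the test. Receptor chains carried 84.9% to 86.1% of the summed interleukin FPKM in obese libraries, against 87.0% to 88.1% in lean libraries. Ligands, of which Il16 was the most abundant, carried 12.2% to 13.0% in obese and 10.7% to 11.9% in lean libraries.

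**Figure D1:**
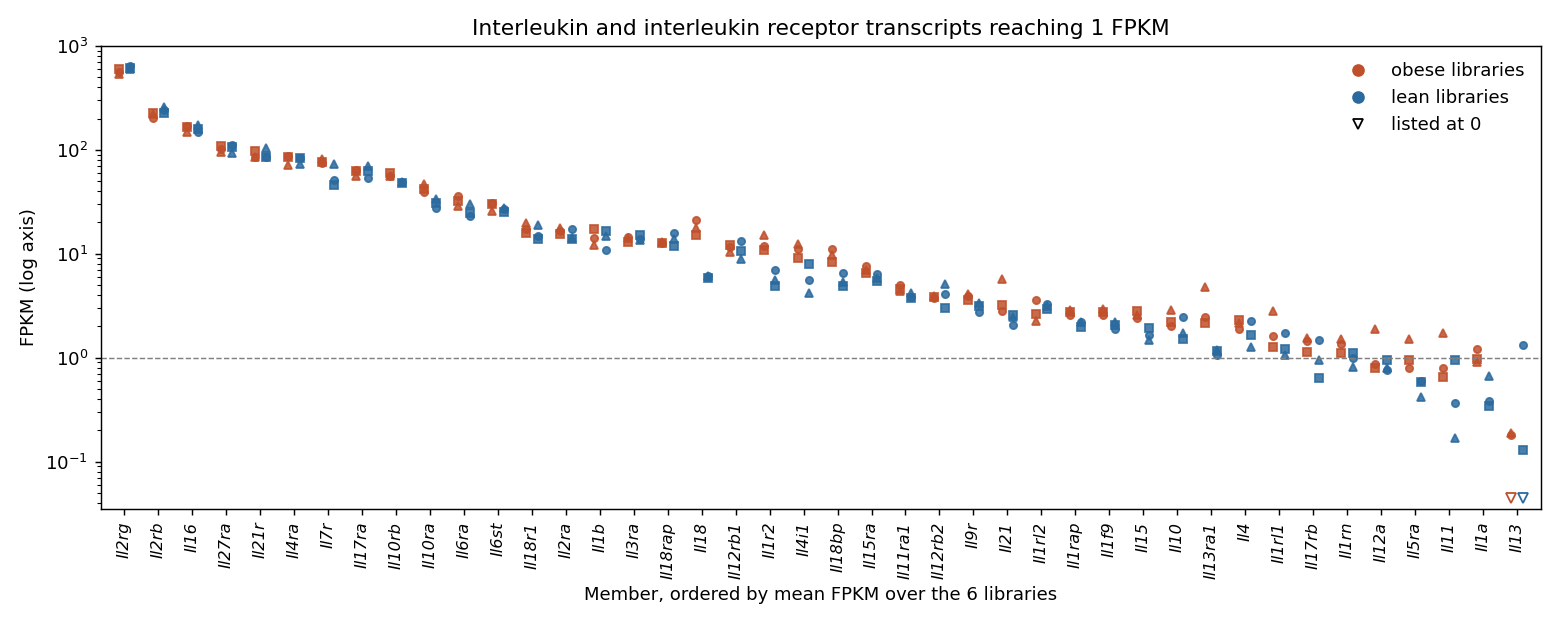
Level of each of the 42 expressed interleukin genes in FPKM on a log axis, with 1 point per library (circle, square and triangle for replicates 1, 2 and 3), obese libraries to the left of lean ones, ordered by the mean over the 6 libraries. Il2rg stands highest, above 541 FPKM in every library, and the dashed line marks 1 FPKM.

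Il2rg, the common gamma chain itself, was the most abundant, with 562.0, 593.8 and 541.6 FPKM in obese 1, 2 and 3, and 643.4, 617.2 and 601.8 FPKM in lean 1, 2 and 3. Il2rb, the signalling chain shared by the IL-2 and IL-15 receptors, came second with 202.1, 223.8 and 221.5 FPKM in obese libraries and 239.9, 225.4 and 257.9 FPKM in lean libraries. Both lay lower in every obese library than in any lean one, yet neither passed the test, with log2 differences of −0.13 ± 0.07 (SE; adjusted p of 0.283 by limma) for Il2rg and −0.16 ± 0.08 (SE; adjusted p of 0.243 by limma) for Il2rb. NK cells also carry Il2rb at high level, and of 7 NK cell markers 3 fell, their sum being 199.2 to 276.7 FPKM in obese and 276.3 to 368.8 FPKM in lean libraries, a part in this difference that was not tested. Il2rg and Il2rb together took 44.8% to 46.4% of the summed interleukin FPKM in obese libraries, against 49.6% to 51.8% in lean libraries. In bulk RNA such as this, fewer cells of a type and less RNA per cell cannot be told apart.

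Of the next 6 genes in level, 5 had groups that overlapped, and Il7r is taken up with its family. Il16, a chemoattractant ligand of CD4 that T cells store as a precursor, averaged 161.3 ± 10.7 FPKM in obese and 160.5 ± 11.3 FPKM in lean libraries (SD, n = 3 each). Up to 1084 bases of Il16 exons overlap Stard5 on the opposite strand, and whether the libraries were stranded is not known. Il27ra, which binds IL-27, stood at 102.2 ± 6.76 FPKM in obese and 103.4 ± 10.2 FPKM in lean libraries (SD, n = 3 each). Il21r, the IL-21 receptor, stood at 90.04 ± 7.02 and Il4ra, the IL-4 receptor, at 81.4 ± 8.27 FPKM in obese libraries, against 91.2 ± 10.2 and 80.1 ± 5.59 FPKM in lean libraries (SD, n = 3 each). Il17ra, through which IL-17A and IL-17F signal, stood at 60.8 ± 3.86 FPKM in obese and 62.3 ± 8.18 FPKM in lean libraries (SD, n = 3 each). The estimated log2 differences of these 5 lay between −0.03 and 0.02, with limma's adjusted p of 0.883 or more. In the order of levels Il16 stood apart from Il27ra, and Il4ra from Il17ra, while the libraries of Il27ra overlapped those of Il21r, and those of Il21r overlapped those of Il4ra.

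Of the 37 tested genes 6 rose in obese libraries and none fell, a share of 16.2% for rises, where 5.77% of all tested genes were called higher and 0.519% lower. None was lower at an unadjusted limma p under 0.05 either, and 14 in all lay under that value. The share of all tested genes under that value is not given here, so these counts have no background beside them. The 6 are Il18, Il1r2, Il18bp, Il10ra, Il13ra1 and Il4i1. Of them 3 belong to the IL-1 family, of which 11 genes were tested, too few to set against the 5.77% of all tested genes. The median log2 difference of the 37 was 0.22, against 0.10 for all tested genes. With median-of-ratios scaling these medians were 0.09 and −0.03, and after quantile normalization 0.0086 and −0.032. Groups did not overlap for 17 of the 37, with 15 higher in obese libraries (40.5%, against 25.4% of all tested genes) and 2 lower (against 6.15% of all tested genes). The count of 6 became 3 without lean 1, without lean 2 or without obese 1, 2 with no filter or after quantile normalization, and 14 with library weights, under which 23.2% of all genes were called higher. Il18 and Il1r2 were called in all 6 fits that left out 1 library and in the 11 other alternatives. Il18bp, Il10ra, Il13ra1 and Il4i1 each lost the call with no filter and after quantile normalization, and Il4i1 also with a filter on the mean of at least 5 FPKM.

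**Figure D2:**
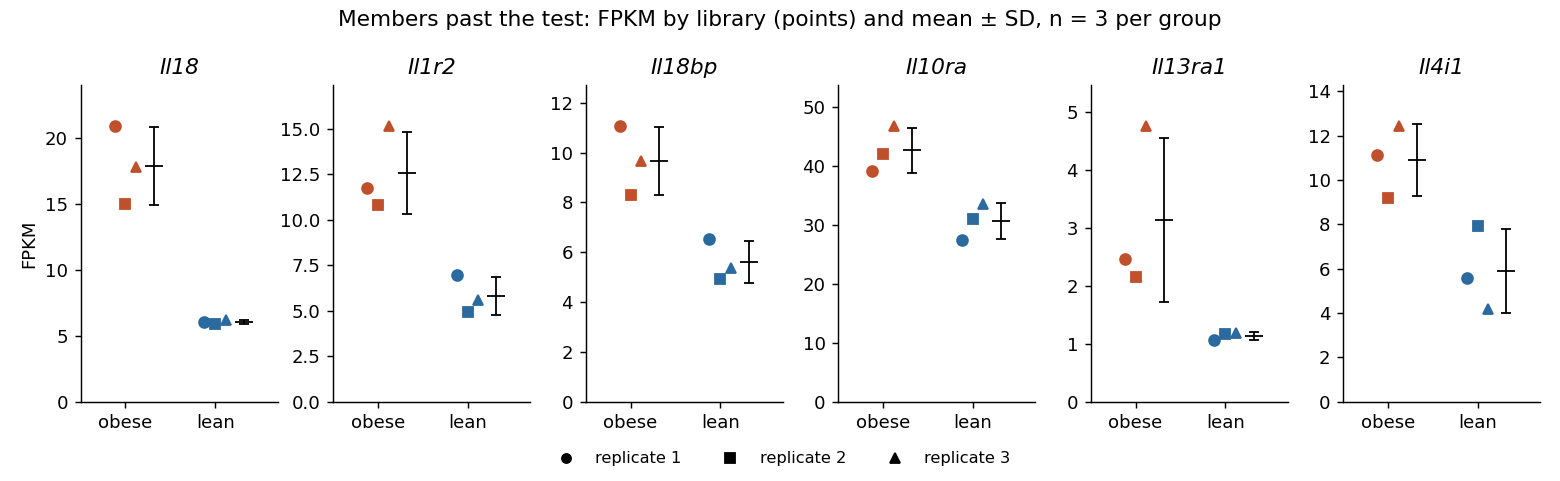
FPKM of the 6 called genes in each library, each panel with its own axis from 0, obese left and lean right, points for replicates 1 to 3 and bars for the mean ± SD (n = 3 per group). In each panel the 3 obese points lie above the 3 lean ones, with Il18 at 15.0 FPKM or more in obese and at most 6.17 FPKM in lean libraries.

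Il18 (gene 16173, chromosome 9, 50554700 to 50581841, GRCm38) showed the greatest difference of the 37. It encodes IL-18, an IL-1 family cytokine made mainly by macrophages and epithelia, released after cleavage by caspase-1, that drives interferon-gamma production by T and NK cells. It stood at 20.9, 15.0 and 17.8 FPKM in obese 1, 2 and 3, and at 6.09, 5.87 and 6.17 FPKM in lean 1, 2 and 3. The lean libraries lay close together, and every obese value was more than 2 times the highest of them. The mean was 2.96 times higher in obese libraries, with a log2 difference of 1.41 ± 0.12 (SE; adjusted p of 5.53e-04 by limma), and 1.25 to 1.54 over all alternatives. Macrophage markers were also higher in obese libraries: each of the 12 rose and none was at 0. Their summed level was 1315, 1152 and 1061 FPKM in obese 1, 2 and 3, and at most 446.8 FPKM in lean libraries. That sum was lowest in obese 3, whereas Il18 was lowest in obese 2. The 10 erythroid markers all rose as well, with sums of 29030, 4357 and 23508 FPKM in obese 1, 2 and 3. The part of either cell type in the rise of Il18 was not tested.

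Il18bp (gene 16068, chromosome 7, 102015074 to 102018232, GRCm38) encodes the soluble protein that binds IL-18 and blocks it. It stood at 11.1, 8.30 and 9.65 FPKM in obese libraries and at 6.53, 4.92 and 5.39 FPKM in lean libraries, without overlap. The log2 difference was 0.69 ± 0.13 (SE; adjusted p of 0.0209 by limma). The call was lost without lean 2 (limma's adjusted p = 0.0797) and without obese 1 (0.0629). Macrophages are a known source of this protein too, and the marker values given for Il18 hold beside it. Up to 80 bases of its exons overlap Numa1 on the opposite strand, and strandedness of the libraries is not given in the sources used here. The FPKM ratio of Il18 to Il18bp was 1.89, 1.81 and 1.85 in obese libraries and 0.933, 1.19 and 1.14 in lean libraries, without overlap.

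Neither chain of the IL-18 receptor was called. Il18r1, its ligand-binding chain, stood at 17.4, 16.0 and 19.7 FPKM in obese libraries and at 14.8, 13.9 and 18.8 FPKM in lean libraries. Il18rap, the accessory chain, stood at 12.7, 12.8 and 12.9 FPKM in obese libraries and at 15.9, 11.8 and 13.7 FPKM in lean libraries. Both pairs of groups overlapped, and the log2 differences of 0.15 ± 0.13 and −0.09 ± 0.11 did not pass (SE; adjusted p of 0.463 and 0.635 by limma). T cells and NK cells are the usual carriers of both chains.

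Il1r2 (gene 16178, chromosome 1, 40084692 to 40125230, GRCm38) encodes the decoy receptor of IL-1, which binds the cytokine but has no signalling domain. It stood at 11.8, 10.8 and 15.1 FPKM in obese libraries and at 6.98, 4.93 and 5.57 FPKM in lean libraries. Obese 3 was the highest, and the groups did not overlap. The mean was 2.16 times higher in obese libraries, with a log2 difference of 0.99 ± 0.15 (SE; adjusted p of 0.00712 by limma). Neutrophils, macrophages and activated regulatory T cells are known to express Il1r2. Of the neutrophil markers 6 of 10 fell and 3 overlapped (Mmp8, Cxcr2 and Csf3r). Cxcr2 averaged 3.57 FPKM in obese and 3.23 FPKM in lean libraries, and Csf3r 10.3 and 9.17 FPKM, neither of them called. All 12 macrophage markers rose. The 5 regulatory T cell markers (Foxp3, Ctla4, Ikzf2, Tnfrsf18 and Lrrc32) had no call and summed to 199.8 to 204.9 FPKM in obese and 167.4 to 199.5 FPKM in lean libraries, most of it Tnfrsf18 and Foxp3. Among them Ctla4 and Ikzf2 lay higher in every obese than in any lean library (log2 differences of 0.34 and 0.62; adjusted p of 0.0855 and 0.0739 by limma), and the part of these cells was not tested.

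Il1r2 opens a row of 6 IL-1 family receptor genes on chromosome 1, followed by Il1r1, Il1rl2, Il1rl1, Il18r1 and Il18rap up to position 40551707 (GRCm38). Il1r1, the signalling receptor of IL-1, stayed under 1 FPKM in all libraries, with 0.46, 0.66 and 0.88 FPKM in obese and 0.35, 0.46 and 0.84 FPKM in lean libraries. The decoy was therefore 16.4 to 25.6 times as high as the signalling receptor in obese libraries and 6.63 to 19.9 times as high in lean libraries, ranges that overlap. With Il1r1 so near 0 these ratios are imprecise, and both transcripts need not come from the same cells. Il1rl2, the IL-36 receptor, averaged 2.82 ± 0.69 FPKM in obese and 3.11 ± 0.15 FPKM in lean libraries (SD, n = 3 each). Il1rl1, the IL-33 receptor ST2 of Th2, regulatory and mast cells, averaged 1.90 ± 0.81 FPKM in obese and 1.32 ± 0.35 FPKM in lean libraries (SD, n = 3 each), with obese 3 highest at 2.82 FPKM. Of the 5 tested genes of this row Il1r2 was called and the other 4 did not pass. Whether Il1r2 differs from its neighbours in this was not tested.

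**Figure D3:**
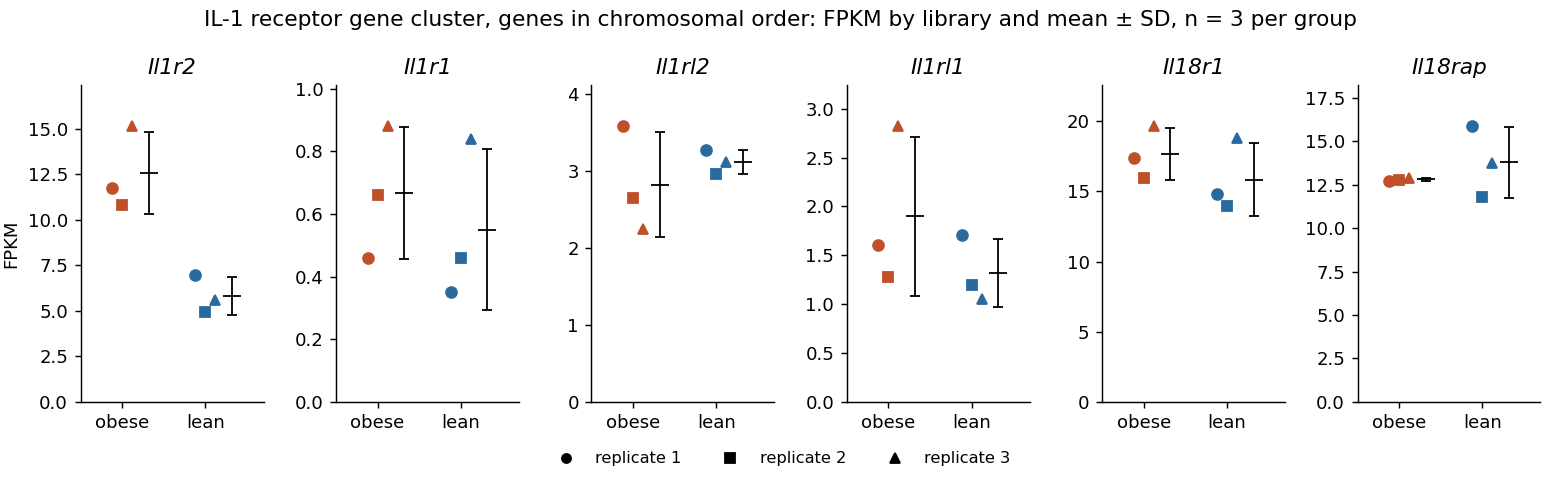
FPKM by library of the 6 IL-1 family receptor genes that lie side by side on chromosome 1, in chromosomal order, each panel with its own axis from 0, obese left and lean right, with the mean ± SD (n = 3 per group). The groups separate for Il1r2, at 10.8 FPKM or more in obese and at most 6.98 FPKM in lean libraries, and overlap in the other 5 panels.

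None of the remaining IL-1 family genes was called. Il1b, the inflammatory cytokine of monocytes and neutrophils, stood at 14.2, 17.1 and 12.2 FPKM in obese libraries and at 10.98, 16.6 and 14.8 FPKM in lean libraries, and overlapped. Il1a, its sister ligand, stayed under the filter with 1.22, 0.97 and 0.90 FPKM in obese and 0.38, 0.34 and 0.67 FPKM in lean libraries, without overlap and without a test. Il1rn, the soluble receptor antagonist, averaged 1.32 ± 0.21 FPKM in obese and 0.97 ± 0.15 FPKM in lean libraries (SD, n = 3 each) and did not pass (adjusted p of 0.253 by limma). Il1rap, the chain shared by the IL-1, IL-33 and IL-36 receptors, and Il1f9, which encodes IL-36 gamma, did not overlap between groups, with log2 differences of 0.26 and 0.31, but did not pass (adjusted p of 0.165 and 0.115 by limma).

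The promoter windows of Il18, Il18bp and Il1r2, the called genes of this family, are shown because they moved in the same direction. They are the 250 bases before the transcript start in RefSeq (GRCm38.p6), 5′ to 3′ on the gene's strand, and capitals mark any match on either strand to 4 motifs: the STAT site TTCNNNGAA, the interferon response element GAAANNGAA, the PU.1 core GAGGAAG and the AP-1 site TGANTCA.
Il18, chr9:50554450-50554699, plus strand: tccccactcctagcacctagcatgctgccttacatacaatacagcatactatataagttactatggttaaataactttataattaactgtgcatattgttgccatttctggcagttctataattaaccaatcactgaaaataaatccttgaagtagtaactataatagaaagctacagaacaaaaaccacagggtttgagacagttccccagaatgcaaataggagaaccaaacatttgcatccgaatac
Il18bp, chr7:102018233-102018482, minus strand: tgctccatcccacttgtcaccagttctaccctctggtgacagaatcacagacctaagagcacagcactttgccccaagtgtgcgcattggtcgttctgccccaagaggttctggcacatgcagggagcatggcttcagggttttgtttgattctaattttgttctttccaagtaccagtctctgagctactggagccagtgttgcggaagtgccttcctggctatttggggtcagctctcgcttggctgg
Il1r2, chr1:40085843-40086092, plus strand: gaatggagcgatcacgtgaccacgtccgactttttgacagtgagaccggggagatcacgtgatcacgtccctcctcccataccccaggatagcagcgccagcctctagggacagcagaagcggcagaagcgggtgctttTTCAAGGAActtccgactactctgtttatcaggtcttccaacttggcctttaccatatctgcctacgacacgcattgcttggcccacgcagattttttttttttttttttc
The Il1r2 window held 1 STAT match, as did 7.02% of the 32851 promoter windows in that table, and those of Il18 and Il18bp held none of the 4 motifs. This window lies before a start inside the annotated span of Il1r2. Windows were present for 5 of the 6 called genes, and that of Il4i1 held 1 PU.1 match (10.6% of all windows), while that of Il13ra1 held none. The interferon element occurred in 7.13% and the AP-1 site in 6.75% of all windows. Motifs may overlap one another, and a missing match says only that these letters are not in the window. The Il18 window is poor in G and C (35.6%) and the Il1r2 window is not (51.2%).

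Both chains of the IL-10 receptor lay higher in obese libraries, and 1 of them was called. Il10ra (gene 16154, chromosome 9, 45253837 to 45269149, GRCm38), the chain that binds the anti-inflammatory cytokine IL-10, stood at 39.2, 42.0 and 46.8 FPKM in obese libraries and at 27.5, 31.0 and 33.6 FPKM in lean libraries. The mean was 1.39 times higher in obese libraries, with a log2 difference of 0.46 ± 0.10 (SE; adjusted p of 0.0302 by limma). The call was lost without lean 1, lean 2, obese 2 or obese 3, each left out alone (limma's adjusted p of 0.0703 to 0.102), and after median-of-ratios scaling (0.0923). Il10rb, the shared second chain, stood at 55.7, 60.4 and 55.6 FPKM in obese libraries and at 49.0, 48.4 and 49.3 FPKM in lean libraries. Its groups did not overlap, but the log2 difference of 0.22 ± 0.07 did not pass (SE; adjusted p of 0.0919 by limma). For Il10rb the difference was 0.074 with median-of-ratios scaling (limma's adjusted p of 0.596). The gene was called with scaling that left out haemoglobin genes and Jchain (0.0282) and with library weights (0.0077). Macrophages and B cells also carry this receptor, and their marker values are those given above. Il10 itself was low, at 2.02, 2.22 and 2.86 FPKM in obese and 2.46, 1.50 and 1.73 FPKM in lean libraries, and overlapped.

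Among the genes of the common gamma chain and IL-13 group, 1 of 12 tested was called, too few to set against the 5.77% of all tested genes called higher. It was Il13ra1 (gene 16164, chromosome X, 36112108 to 36171262, GRCm38), which joins Il4ra in the receptor that lets myeloid and other non-T cells respond to IL-13. It stood at 2.47, 2.16 and 4.75 FPKM in obese libraries and at 1.06, 1.17 and 1.18 FPKM in lean libraries. Obese 3 stood well above the other obese libraries, and the lean libraries lay close together below all of them. The log2 difference was 0.90 ± 0.21 (SE; adjusted p of 0.0413 by limma), and 0.63 without obese 3, where the call was kept, while it was lost without any 1 of the lean libraries and without obese 1 (limma's adjusted p up to 0.117). Of the monocyte markers Ly6c2, Ccr2, Lyz2 and Fcgr1, Lyz2 and Fcgr1 rose. The sum of all 4 was 908.5, 980.7 and 1250 FPKM in obese 1, 2 and 3, most of it Lyz2, and 634.1 to 759.4 FPKM in lean libraries, whereas Fcgr1 was lower in obese 3 than in the other obese libraries, and their part was not tested. Il4ra, the partner of Il13ra1, was 15.1 to 39.4 times as abundant in obese libraries and 62.4 to 79.0 times as abundant in lean libraries.

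Il7r, the IL-7 receptor by which naive and memory T cells survive, stood at 74.4, 76.9 and 81.1 FPKM in obese libraries and at 51.7, 45.6 and 73.2 FPKM in lean libraries. Lean 3 lay just under the obese values and well above the other lean libraries. The log2 difference of 0.47 ± 0.15 did not pass (SE; adjusted p of 0.102 by limma), and without lean 3 it was 0.66 and did (0.00729). Il15, which sustains memory T and NK cells and is made by myeloid cells, stood at 2.40, 2.83 and 2.56 FPKM in obese libraries and at 1.64, 1.92 and 1.49 FPKM in lean libraries, and came closest to the threshold without passing it (log2 difference 0.42 ± 0.11 (SE); adjusted p of 0.0643 by limma). Il15 was called without the variance trend (limma's adjusted p of 0.0412), with scaling that left out haemoglobin genes and Jchain (0.0368) and with library weights (0.00537). Its difference was 0.17 after quantile normalization. Il15ra, which presents IL-15 to neighbouring cells, averaged 7.02 ± 0.53 FPKM in obese and 5.88 ± 0.42 FPKM in lean libraries (SD, n = 3 each; adjusted p of 0.214 by limma).

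Il2ra, the high-affinity IL-2 receptor chain CD25 of regulatory and activated T cells, stood at 16.4, 15.4 and 17.5 FPKM in obese libraries and at 17.3, 13.8 and 14.3 FPKM in lean libraries, and overlapped (log2 difference 0.12; adjusted p of 0.501 by limma). Il9r, the IL-9 receptor, averaged 3.90 ± 0.26 FPKM in obese and 3.09 ± 0.30 FPKM in lean libraries (SD, n = 3 each) without overlap, and did not pass (adjusted p of 0.175 by limma). Il21, the cytokine of follicular helper T cells that acts on B cells, stood at 2.79, 3.23 and 5.74 FPKM in obese libraries and at 2.08, 2.57 and 2.44 FPKM in lean libraries. The groups did not overlap and the high value in obese 3 stood apart, but the log2 difference of 0.50 ± 0.20 did not pass (SE; adjusted p of 0.164 by limma). B cell markers were also highest in obese 3, at 936.9 FPKM. Their sum in lean 2, 755.1 FPKM, lay above those of obese 1 and 2 (499.4 and 540.2 FPKM), where Il21 was higher than in lean 2. Any part of B cells was not tested.

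Cytokines by which helper subsets are named were scarce. Il4, of Th2 and follicular helper cells, averaged 2.11 ± 0.21 FPKM in obese and 1.72 ± 0.49 FPKM in lean libraries (SD, n = 3 each) and did not pass (adjusted p of 0.406 by limma). Il2, released by T cells on activation, stayed at 0.65 to 0.86 FPKM in obese and 0.66 to 0.87 FPKM in lean libraries. Il17a was listed at 0 in the obese libraries and at 0.13, 0.04 and 0 FPKM in lean 1, 2 and 3, and Il5 did not exceed 0.07 FPKM. Il13, beside Il4 and Il5 on chromosome 11, was at most 0.19 FPKM in 5 libraries and 1.31 FPKM in lean 1. Mast cell and basophil markers summed to 16.1 to 37.8 FPKM in obese libraries, and to 77.8, 34.3 and 35.04 FPKM in lean 1, 2 and 3, and their part was not tested.

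The gp130 and IL-12 group held no called gene among 6 tested, too few to set against the 5.77% of all tested genes called higher. Il6ra, the IL-6 receptor of naive T cells, stood at 36.1, 32.5 and 29.1 FPKM in obese libraries and at 23.2, 24.6 and 30.0 FPKM in lean libraries, with a difference of 0.32 ± 0.12 that missed the threshold (SE; adjusted p of 0.133 by limma). Il6st, which encodes gp130, averaged 28.9 ± 2.67 FPKM in obese and 26.6 ± 1.24 FPKM in lean libraries (SD, n = 3 each). Il12rb1 and Il12rb2, the chains of the IL-12 receptor of Th1 cells, averaged 11.4 ± 0.79 and 3.85 ± 0.12 FPKM in obese libraries, against 10.9 ± 2.14 and 4.05 ± 1.06 FPKM in lean libraries (SD, n = 3 each). Exons of Il12rb2 share up to 1419 bases with Serbp1 on the opposite strand. Il11ra1, the IL-11 receptor, did not overlap, with 4.65 ± 0.31 FPKM in obese and 3.93 ± 0.24 FPKM in lean libraries (SD, n = 3 each), and did not pass (adjusted p of 0.261 by limma). Il12a and Il11 reached 1 FPKM in obese 3 alone, at 1.88 and 1.74 FPKM, as did Il5ra, the IL-5 receptor of eosinophils and B cells, at 1.50 FPKM. In the common beta chain and IL-17 groups Il3ra, the IL-3 receptor, averaged 13.8 ± 0.87 FPKM in obese and 14.1 ± 0.87 FPKM in lean libraries, and Il17rb, the IL-25 receptor, 1.37 ± 0.21 FPKM in obese and 1.02 ± 0.43 FPKM in lean libraries (SD, n = 3 each).

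Il4i1 (gene 14204, chromosome 7, 44836288 to 44840809, GRCm38) encodes a secreted amino acid oxidase of myeloid and B cells that restrains T cell proliferation. It stood at 11.1, 9.18 and 12.4 FPKM in obese libraries and at 5.58, 7.93 and 4.20 FPKM in lean libraries. Lean 2 came close to the lowest obese library, obese 2. The log2 difference was 0.81 ± 0.19 (SE; adjusted p of 0.0452 by limma), just under the threshold, and the call was lost without lean 1, lean 3, obese 1 or obese 3, each left out alone (limma's adjusted p of 0.0662 to 0.121), and under median-of-ratios scaling (0.0766). The entry Il4i1b (at most 0.42 FPKM) overlaps nearly all of Il4i1 in RefSeq, so the split of reads between both is uncertain. Exons of Il4i1 also share up to 1227 bases with Tbc1d17 and 82 with Atf5 on the opposite strand, and 88 with Nup62 on the same strand. Macrophage markers rose as given above, while the 8 B cell markers had no call and overlapped. Of 5 plasma cell markers 2 rose (sums of 753.0 to 1363 FPKM in obese and 466.2 to 547.2 FPKM in lean libraries). The part of these cells was not tested.

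**Figure D4:**
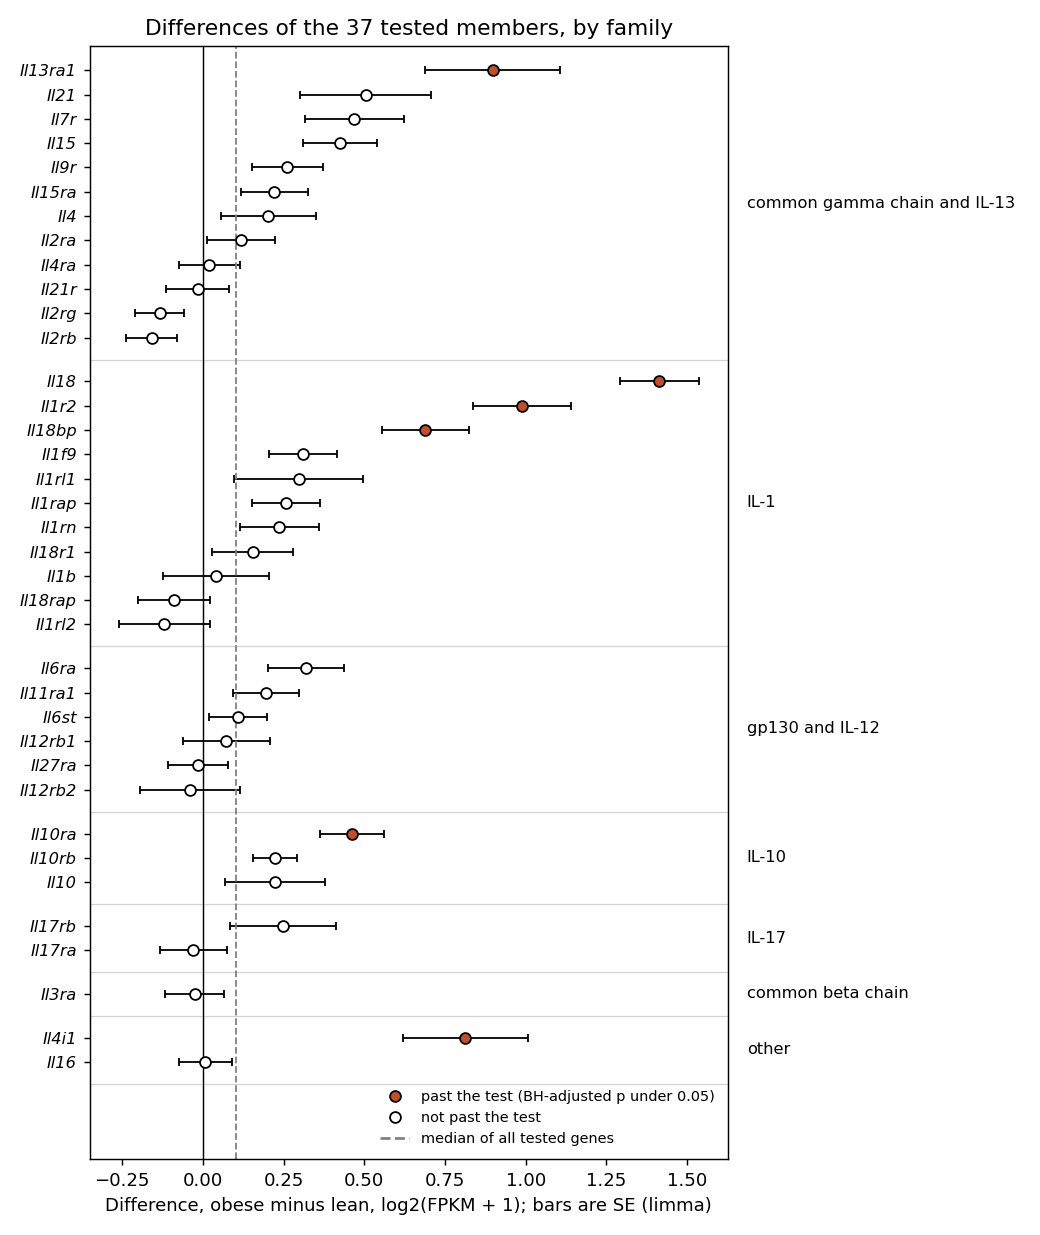
Log2 difference of each of the 37 tested genes, obese minus lean in log2(FPKM + 1), with limma's SE as bars, grouped by family, filled points being those past the test and the dashed line the median of all tested genes (0.10). Il18 lies furthest to the right at 1.41, and the 6 filled points lie between 0.46 and 1.41.

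Partners of these genes that carry other symbols, 38 receptor subunits, ligands, kinases, STAT factors, feedback inhibitors and IL-1 pathway adaptors, were examined alongside. Of 33 tested, 1 rose and none fell (0 lower at BH-adjusted p under 0.05 in limma, 1 lower at an unadjusted p under that value, Myd88), where 5.77% of all tested genes rose. Their median log2 difference was 0.11, against 0.10 for all tested genes. Groups did not overlap for 8 of the 33 with obese higher and 2 with obese lower, against 25.4% and 6.15% of all tested genes. The gene that rose was Casp1, the protease that matures IL-18 and IL-1 beta, with 24.9, 22.9 and 30.8 FPKM in obese libraries and 20.1, 15.6 and 17.8 FPKM in lean libraries (log2 difference 0.53 ± 0.13 (SE); adjusted p of 0.0486 by limma). Its call was lost without lean 2 or obese 3 and under median-of-ratios scaling. Csf2ra, the GM-CSF receptor of myeloid cells, and Jak2 did not overlap between groups either, with log2 differences of 0.59 and 0.51 that did not pass (adjusted p of 0.0532 and 0.0822 by limma). Myd88, the adaptor of the IL-1 family receptors, averaged 57.0 ± 2.64 FPKM in obese and 63.9 ± 1.55 FPKM in lean libraries (SD, n = 3 each). Its obese libraries lay lower without overlap, and it did not pass (adjusted p of 0.187 by limma). Jak1 and Jak3, the kinases paired with the common gamma chain receptors, averaged 121.6 ± 1.75 and 58.3 ± 1.30 FPKM in obese libraries, against 113.9 ± 20.7 and 55.3 ± 9.03 FPKM in lean libraries (SD, n = 3 each).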

How the data were processed

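RNA of splenic CD4+ T cells was sequenced in 3 obese and 3 lean libraries. The authors deposited 1 table per library with FPKM values, scaled by transcript length and mapped fragments. The submitters' processing notes name RSEM and Bowtie (builds mm10 and GRCm38). Strandedness, annotation and versions are not stated there. Low FPKM times transcript length was searched for whole-read steps (score 0.156 to 0.343 of a maximum of 1), so depth is unknown and precision rests on the spread between libraries.

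Groups were taken from the sample titles. Genes with at least 1 FPKM in 3 or more of 6 libraries were fitted with limma 3.58.1 in R 4.3.3 (eBayes with trend) on log2(FPKM + 1), 2-sided, BH-adjusted over all 10788 genes. The fit was tested on simulated data. Alternatives changed the pseudocount, filter, scaling, variance model, weights, replicate block or left out 1 library. Coordinates came from RefSeq GRCm38.p6, matched by gene number, for all 83 genes, and exon overlaps from GENCODE M21. Named genes were those called, those whose groups did not overlap, the 12 most abundant and a fixed set of T cell relevant members; partners were named if called or among the 8 smallest p, except for some not reported here. Myd88, Jak1, Jak3 and low or neighbouring members outside this rule were named after their values were seen. Members and lists were chosen with earlier results of these data known.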

Additional observations from a re-analysis of the deposited data

How the results depend on the processing

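Il18 and Il1r2 were called under all 17 alternatives, Il18bp under 13, Il10ra and Il13ra1 under 10 of 17 and 10 of 16, and Il4i1 under 8 of 17, always as higher. The count of called interleukin genes was 2 with no filter, where 17392 genes were tested, 2 after quantile normalization, 14 with library weights and 3 to 5 when 1 library was left out, and none was lower in any fit. Why these counts changed was not tested. Of all genes, 344 were called higher and 24 lower with no filter, and 293 and 35 with a mean of at least 5 FPKM. Quantile normalization gave 322 and 112, and library weights 2507 and 609. In another fit, 945 were called higher when scaling left out immunoglobulin, haemoglobin and mitochondrial genes picked by symbol (13). The tested genes among the 13 were Hba-a1, Hba-a2, Hbb-bs, Hbb-bt and Jchain, with no mitochondrial gene and no other immunoglobulin gene. Median-of-ratios scaling gave 434 higher and 173 lower, moved the median of all tested genes from 0.10 to −0.03 and that of the 37 from 0.22 to 0.09. Higher genes made 91.7% of all calls, 71.5% after that scaling, 74.2% after quantile normalization and 80.5% with library weights. Leaving out 1 library gave 299 to 601 higher and 19 to 97 lower. Among partners 0 to 1 were higher in those fits, and 0 after median-of-ratios scaling.

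With the replicate block 866 genes were higher and 149 lower, and 5 interleukin genes were called, Il4i1 being lost (adjusted p of 0.0654 by limma). Deviations of same-numbered libraries correlated at 0.032, 0.061 and 0.193, and obese 1 correlated best with lean 2 (0.16), so the numbers were not taken as pairs.

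Some estimates changed sign, and none of the values with the changed sign was called. After quantile normalization the log2 differences were −0.041 for Il10, −0.036 for Il11ra1, −0.082 for Il12rb1, −0.0060 for Il15ra, −0.098 for Il1b, −1.8e-05 for Il1rap, −0.0080 for Il2ra, −0.055 for Il4 and −0.00070 for Il4ra. With library weights they were −0.026 for Il10, −0.083 for Il12rb1, 0.15 for Il17ra, −0.046 for Il17rb, −0.068 for Il1rl1, 0.11 for Il21r and −0.063 for Il2ra. After median-of-ratios scaling they were −0.067 for Il12rb1, −0.14 for Il16, −0.10 for Il1b, −0.024 for Il2ra, −0.13 for Il4ra and −0.036 for Il6st. After rescaling to TPM they were 0.013 for Il12rb2, 0.032 for Il17ra, 0.046 for Il21r, 0.047 for Il27ra and 0.034 for Il3ra. Scaling without haemoglobin genes and Jchain gave 0.046 for Il12rb2, 0.077 for Il17ra, 0.0095 for Il18rap, 0.090 for Il21r, 0.091 for Il27ra and 0.075 for Il3ra. When 1 library was left out the differences ranged from −0.051 to 0.21 for Il12rb1, −0.20 to 0.11 for Il12rb2, −0.041 to 0.063 for Il16, −0.13 to 0.061 for Il17ra, −0.19 to 0.0090 for Il18rap, −0.12 to 0.16 for Il1b, −0.079 to 0.073 for Il21r, −0.095 to 0.046 for Il27ra, −0.062 to 0.022 for Il3ra and −0.038 to 0.11 for Il4ra.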
